A study of Homo sapiens with 8 samples.

Results

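The messenger RNAs described here encode the general splicing factors of the SR and hnRNP families and the CLK and SRPK kinases, which phosphorylate SR proteins. They were measured in human LX-2 hepatic stellate cells given a solvent or an inhibitor of O-GlcNAc transferase (OGT). Members were taken by symbol. They comprised every gene whose symbol starts with SRSF or HNRNP, together with TRA2A, TRA2B, CLK1, CLK2, CLK3, CLK4, SRPK1, SRPK2, SRRM1 and SRRM2. This gave 45 genes, of which 42 reached a total of 10 counts over the 8 libraries and were tested, among 14895 genes tested and 16796 genes in the files. The 3 genes left out, SRSF12, HNRNPCL2 and HNRNPCL4, each had a total of 1 count. The 42 members were 11 SR proteins, 21 hnRNPs, 2 TRA2 activators, 4 CLK kinases, 2 SRPK kinases and 2 SRRM proteins.

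LX-2 is an established, immortalised line of activated human hepatic stellate cells, used as a culture model of liver myofibroblasts. Cells kept in medium with 5% fetal bovine serum were exposed for 24 h either to the solvent DMSO (control) or to 50 µM OSMI-1, a small molecule that inhibits OGT (OGTi). Each group had 4 libraries from biological replicates numbered 1 to 4, all of the same line, and no group carried a genetic change beyond those of the line. Polyadenylated RNA was sequenced, so the values are messenger RNA levels and not protein levels.

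SR proteins carry RNA-recognition domains and a tail rich in arginine-serine repeats, and they mostly promote the use of the exons they bind. hnRNPs coat nascent transcripts, often oppose SR proteins at nearby sites, and also take part in messenger RNA export, stability and translation. SRPK kinases phosphorylate the arginine-serine tails in the cytoplasm and CLK kinases do so in the nucleus, and many genes of these families limit their own output through transcript forms that are degraded or kept in the nucleus.

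Libraries held 24166756 to 28201215 counts, and 12829 to 13180 genes per library reached 10 counts. Replicate libraries were distinct: the chi-square per degree of freedom between libraries of a group was 8.66 or more. All 12 stellate and myofibroblast markers checked had values, and their summed level was 8222 to 9553 CPM (counts scaled to a common library total) in control and 6497 to 7864 in OGTi libraries, while DES and LRAT stayed at 5 counts or fewer. The 5 leukocyte and macrophage markers summed to 95.1 to 149 CPM in control and 220.0 to 373 in OGTi libraries, of which CD68 held 2568 to 10182 counts per library and the pan-leukocyte gene PTPRC at most 10. The 3 hepatocyte markers with values summed to 1.70 to 3.84 and 7.17 to 11.6 CPM in control and OGTi libraries. The 3 epithelial markers with values summed to 2.66 to 5.13 and 1.41 to 3.08. The 4 endothelial markers summed to 1.88 to 3.44 and 0.679 to 1.34. ALB, TTR and EPCAM were not analysed here. The part of these shifts in the results below was not tested. The messenger RNA of OGT itself changed by -0.45 ± 0.09 on the log2 scale and that of OGA, the O-GlcNAc-removing enzyme, by -1.80 ± 0.09 (DESeq2 q of 1.48e-06 and 1.69e-92).

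The promoters of 3 members are shown because they head the changes described below. HNRNPD and SRSF3 had the largest falls of the hnRNP and SR families. CLK4 was the only member called higher, and its call was lost in some of the alternative fits. Each sequence is the 250 bases before the gene start in RefSeq (GRCh38.p14), written 5′ to 3′ on the strand of the gene. Capitals mark the TATA box TATAAA, the CCAAT box, the E-box core CACGTG, the GC box GGGCGG and the cyclic AMP response element TGACGTCA, each on either strand.
HNRNPD (chr4:82373992-82374241, minus strand): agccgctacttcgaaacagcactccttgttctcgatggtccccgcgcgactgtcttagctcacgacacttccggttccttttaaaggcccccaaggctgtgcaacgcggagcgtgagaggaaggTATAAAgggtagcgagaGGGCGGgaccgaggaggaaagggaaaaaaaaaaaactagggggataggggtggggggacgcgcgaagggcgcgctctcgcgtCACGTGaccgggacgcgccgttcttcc
SRSF3 (chr6:36594112-36594361, plus strand): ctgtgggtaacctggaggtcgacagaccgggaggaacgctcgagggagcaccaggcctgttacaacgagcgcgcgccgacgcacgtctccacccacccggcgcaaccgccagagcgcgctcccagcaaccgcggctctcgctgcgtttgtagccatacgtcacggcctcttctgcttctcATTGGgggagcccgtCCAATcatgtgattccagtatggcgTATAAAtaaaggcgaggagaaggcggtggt
CLK4 (chr5:178627051-178627300, minus strand): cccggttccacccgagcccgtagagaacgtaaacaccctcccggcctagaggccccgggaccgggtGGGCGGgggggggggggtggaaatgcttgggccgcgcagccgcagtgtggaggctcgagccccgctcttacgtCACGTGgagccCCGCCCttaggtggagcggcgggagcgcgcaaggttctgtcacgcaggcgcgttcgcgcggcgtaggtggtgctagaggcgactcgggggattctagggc
The SRSF3 stretch held TATAAA at position -30 and CCAAT on both strands, at -55 and -70, counted from the gene start. The HNRNPD stretch held TATAAA at -126, GGGCGG at -109 and CACGTG at -27. The CLK4 stretch held CACGTG at -111 and GGGCGG on both strands, at -184 and -100. In GENCODE on GRCh38, HNRNPD (ENSG00000138668) spans bases 82352498 to 82374503 of chromosome 4, SRSF3 (ENSG00000112081) bases 36594353 to 36605600 of chromosome 6 and CLK4 (ENSG00000113240) bases 178602664 to 178630615 of chromosome 5. The stretches of HNRNPD and CLK4 lay inside these intervals, so other transcripts of these genes start further upstream.

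A RefSeq window of 250 bases before to 50 bases after the gene start was matched for 39 of the 42 members (HNRNPA1, SRSF2 and TRA2A were not matched) and for 11394 genes tested. The E-box core CACGTG was present in 9 of 39 member windows (23.1%) and in 9.9% of all windows. It was present in 6 of the 22 windows of members called lower (27.3%), in 2 of the 16 of members not called (12.5%) and in that of CLK4. For members called lower and not called, the shares were 18.2% and 6.2% for TATAAA and 45.5% and 43.8% for CCAAT. For GGGCGG they were 68.2% and 62.5%. These differences were not tested. TATAAA was present in 5 member windows (12.8%, against 6.2% of all), CCAAT in 17 (43.6%, against 36.4%) and GGGCGG in 26 (66.7%, against 68.2%). TGACGTCA was in 0 member windows and in 3.0% of all. The 5 motifs were picked from 16 searched after their shares had been seen. The 11 others were TGACG (contained in the response element), the ETS core CCGGAA and its longer form CCGGAAGT, the E2F sites TTTCCCGC and TTTGGCGC, the NRF1 motif and its shorter form GCATGCGC, the YY1 motif, the CGCG palindrome, and the short motifs CTTTCC and also GGAATG. For these the shares ran from 0.0% to 46.2% of member windows and from 0.8% to 33.0% of all windows. Some of them also differed between members called lower and not called. The shares were 18.2% and 0.0% for GGAATG and 27.3% and 50.0% for CTTTCC, both named after their values were seen and not tested. The median GC content was 65.0% both in member windows and in all windows. A match of letters is a description and does not show that a factor binds there.

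The messenger RNAs of most SR proteins and hnRNPs and of both TRA2 activators were lower in OGTi cells, and none of the CLK and SRPK kinases was called lower. Of the 42 members, 25 were lower (59.5%), 1 was higher and 16 were not called by DESeq2 at an adjusted p-value (q) of 0.05 or lower. Treatment also changed much of the transcriptome: 46.6% of genes with a q were called, 24.0% lower and 22.7% higher. The median log2 fold change was -0.37 over the members and 0.00 over all genes tested. All 4 OGTi libraries lay below all 4 control libraries for 24 members, which happened for 19.2% of all genes tested, and above them for 3 members (18.8% of all genes). In bulk RNA, fewer cells of a kind and less RNA per cell cannot be told apart.

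Members are abundant messenger RNAs, and the share of lower calls was higher among abundant genes. The median of the mean normalized counts was 5261 for members called lower, 2108 for members not called and 619 for all protein-coding genes tested. Among all genes whose mean reached 1000 normalized counts, 33.1% were lower and 25.6% higher. Of the 35 members above this level, 24 were lower (68.6%) and 0 were higher.

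**Figure D1:**
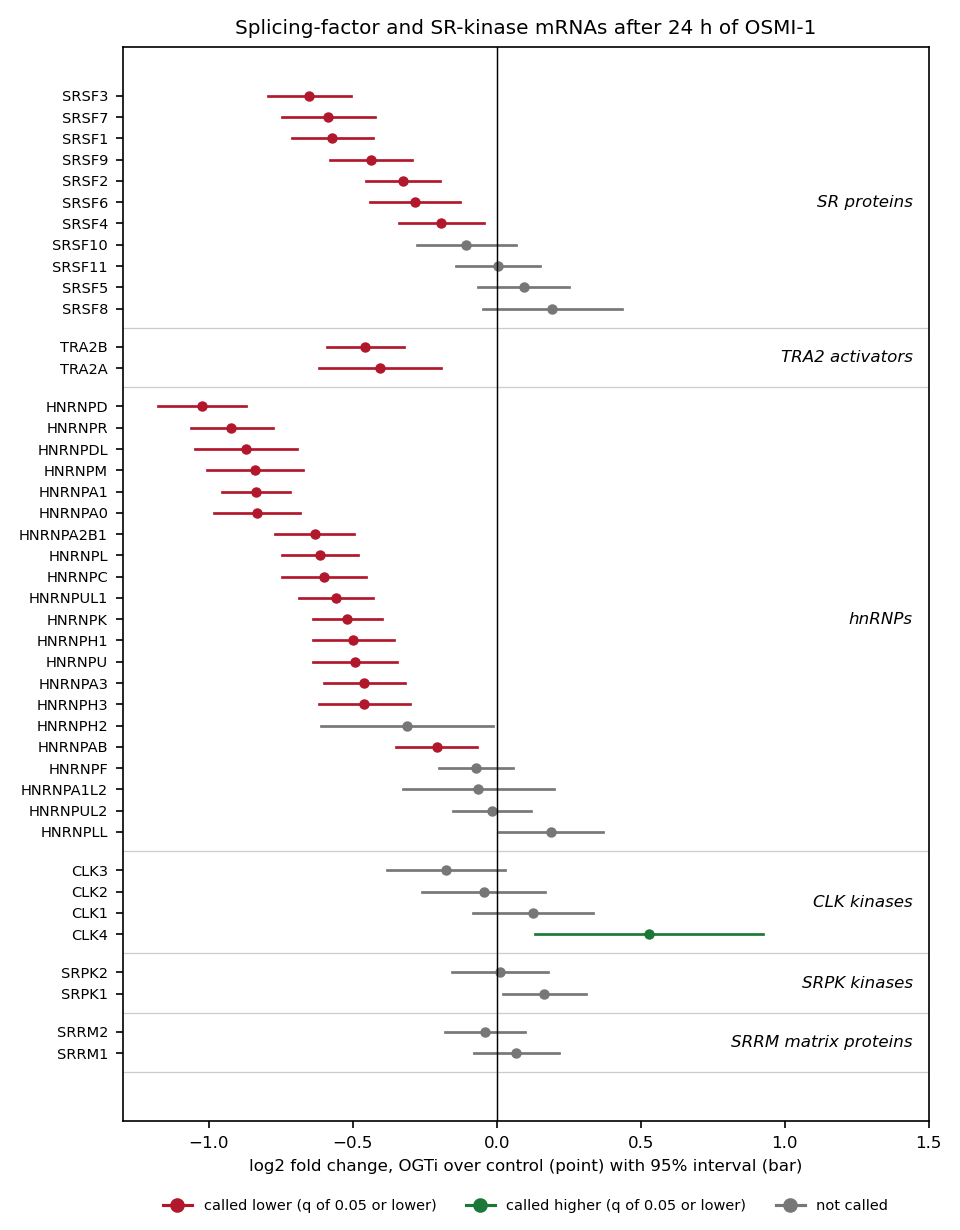
Log2 fold change of OGTi over control for each of the 42 members (x axis; points, with bars for the 95% interval from DESeq2, 4 libraries per group), grouped by family and ordered within it. The hnRNPs, SR proteins and TRA2 activators extend to the left of 0, down to -1.02 for HNRNPD, whereas the kinases and SRRM proteins lie around 0 and CLK4 stands at 0.53.

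The hnRNPs and the SR proteins took a smaller share of all counts in OGTi than in control libraries. The 21 hnRNPs took 0.691% ± 0.0154 of all counts in control and 0.502% ± 0.0202 in OGTi libraries (SD, n = 4 each), and the libraries of the groups did not overlap. The 11 SR proteins took 0.162% ± 0.0044 and 0.140% ± 0.0058, again without overlap. The SRPK kinases went the other way, with 0.0151% ± 0.00027 and 0.0172% ± 0.0003. Neither SRPK gene was called, and SRPK2 alone changed by 0.011 ± 0.085 on the log2 scale (DESeq2 q of 0.933). Shares divide by library totals, and this scaling by itself moved the median log2 fold change of all genes by 0.09 towards OGTi. The CLK kinases overlapped, with 0.0107% ± 0.00056 and 0.0111% ± 0.0006, as did the SRRM proteins, with 0.133% ± 0.0088 and 0.139% ± 0.0069.

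Among the SR proteins, 7 of 11 were lower, 0 were higher and 4 were not called, where 24.0% of all genes were lower and 22.7% higher. SRSF3, a small SR protein that also couples splicing to messenger RNA export, fell most. Its normalized counts were 4182, 4268, 3838 and 3946 in control replicates 1 to 4 and 2442, 2680, 2578 and 2640 in OGTi replicates 1 to 4. The lowest control library was well above the highest OGTi library, and the log2 fold change was -0.65 ± 0.07 (SE; DESeq2 q of 2.74e-17).

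SRSF7, an SR protein with a zinc knuckle that shares the export role of SRSF3, had 2855, 2763, 2638 and 2699 normalized counts in control libraries and 1657, 1944, 1876 and 1836 in OGTi libraries. The groups were apart in every library and the log2 fold change was -0.59 ± 0.08 (DESeq2 q of 1.33e-11). SRSF1, the founding SR protein and a regulator of both constitutive and alternative splicing, had 5020, 5304, 5418 and 5111 in control and 3408, 3390, 3458 and 3782 in OGTi libraries. It too was lower in every OGTi library than in any control library (-0.57 ± 0.07, DESeq2 q of 3.43e-14).

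The remaining called SR proteins changed less. SRSF9 fell from 3311 ± 117 to 2446 ± 53.4 normalized counts (-0.44 ± 0.07, DESeq2 q of 1.84e-08). SRSF2, an SR protein that is confined to the nucleus, fell from 9806 ± 651 to 7825 ± 636 (-0.33 ± 0.07 on the log2 scale, DESeq2 q of 2.77e-06). Its control replicate 1 stood apart from the other 3, and all OGTi libraries were still below it. SRSF6 had 4229 to 5225 counts in control and 3458 to 4485 in OGTi libraries, and it was the single member called lower whose groups overlapped (-0.28 ± 0.08, DESeq2 q of 0.0014). SRSF4, a close relative of SRSF6, changed by -0.19 ± 0.08 on the log2 scale (DESeq2 q of 0.024), which missed the threshold with library totals as size factors and without replicate 2, 3 or 4.

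For 4 SR proteins no difference passed the test, and each interval held changes in both directions. SRSF11 had 4862 ± 198 normalized counts in control libraries and 4884 ± 379 in OGTi libraries, with a 95% interval of the log2 fold change from -0.14 to 0.15. SRSF5 had 2521 ± 73.7 and 2702 ± 294 (interval from -0.06 to 0.25). SRSF10, which acts as a splicing repressor when dephosphorylated, had 2891 ± 220 and 2694 ± 333 (interval from -0.28 to 0.07). SRSF8 had 443 ± 25.3 and 509 ± 68.0 (interval from -0.05 to 0.43). The counts of SRSF10 and SRSF8 were not whole numbers in 7 of 8 libraries, so reads were divided with other genes and both values are uncertain.

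Both TRA2 activators, SR-like proteins that promote inclusion of exons with purine-rich enhancers, were lower in OGTi cells. TRA2B had 4468, 4990, 4635 and 4686 normalized counts in control libraries and 3161, 3617, 3471 and 3438 in OGTi libraries, and the less abundant TRA2A had 901, 1016, 860 and 893 in control and 686, 643, 671 and 770 in OGTi libraries. Neither gene's groups overlapped, and the log2 fold changes were -0.46 ± 0.07 for TRA2B and -0.41 ± 0.11 for TRA2A (DESeq2 q of 1.74e-10 and 6.00e-04).

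**Figure D2:**
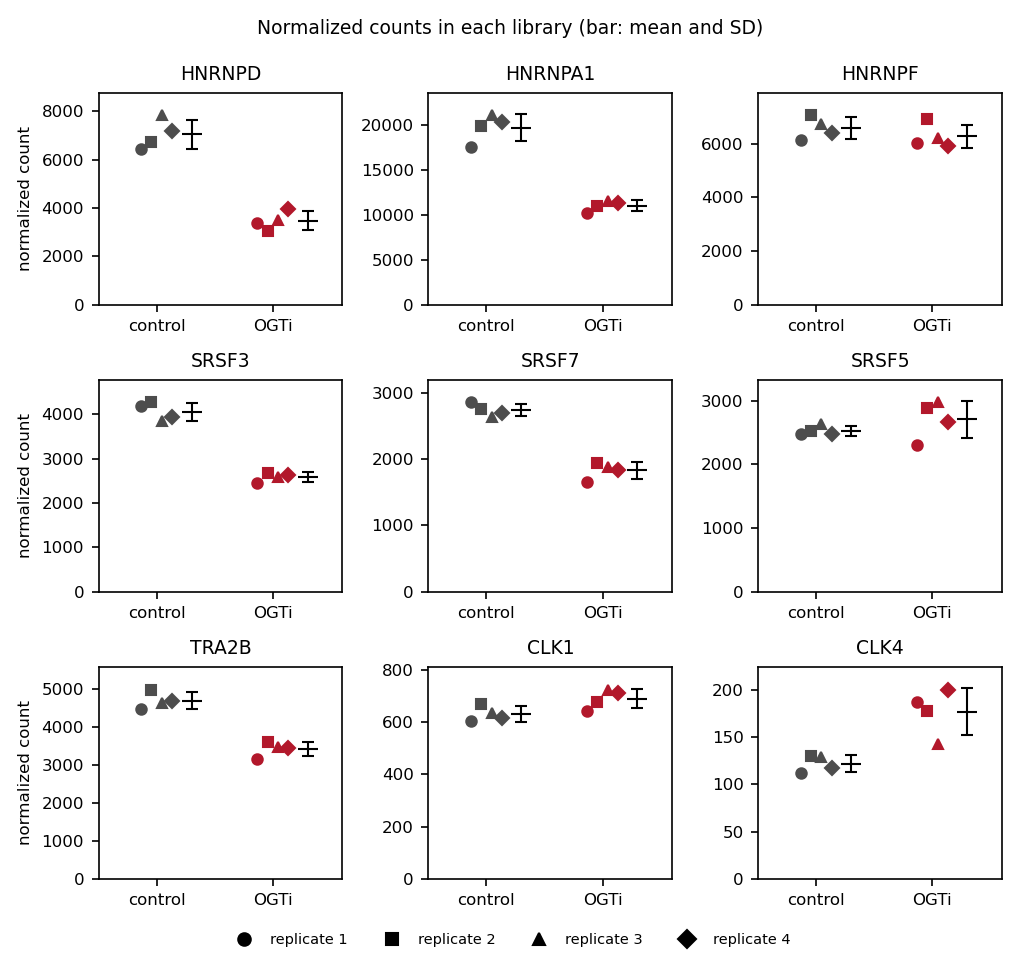
Normalized counts (y axes, from 0) of 9 members in each control and OGTi library, with 1 symbol per replicate number and the mean ± SD (n = 4) beside them. Control and OGTi libraries are apart for HNRNPD, HNRNPA1, SRSF3, SRSF7, TRA2B and CLK4, and overlap for HNRNPF, SRSF5 and CLK1.

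The hnRNPs had the largest falls of all members: 16 of 21 were lower, 0 were higher and 5 were not called, with a median log2 fold change of -0.52 against -0.28 for the SR proteins. The difference between the families was not tested. Over all genes with a q, 24.0% were called lower. All 16 were lower in all 4 pairs, and in none did control and OGTi libraries overlap. The 16 were picked by their call in these same libraries, so this describes them and adds no support. Of all 14895 genes tested, 4185 were lower in all 4 pairs, and 19.2% had all OGTi libraries below all control libraries.

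HNRNPD (AUF1), which binds AU-rich elements and affects messenger RNA decay, was the most lowered member. It had 6455, 6732, 7829 and 7184 normalized counts in control libraries and 3389, 3026, 3504 and 3966 in OGTi libraries. Every OGTi library held fewer counts than the lowest control library, and the level in OGTi cells was 49.1% of control (-1.02 ± 0.08 on the log2 scale, DESeq2 q of 3.58e-38). Its relative HNRNPDL, encoded close to HNRNPD on chromosome 4, had 3817, 4046, 5048 and 4658 in control and 2391, 1766, 2768 and 2766 in OGTi libraries. These groups were apart too, and OGTi replicate 2 was the lowest library (-0.87 ± 0.09, DESeq2 q of 1.16e-20).

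HNRNPR, a relative of SYNCRIP that binds messenger RNA in nucleus and cytoplasm, had 7030, 7181, 8662 and 7529 normalized counts in control libraries and 3560, 3946, 4156 and 4382 in OGTi libraries. No OGTi library came near the control range (-0.92 ± 0.07, DESeq2 q of 8.10e-35). HNRNPM, which controls alternative exons linked to the epithelial and mesenchymal states, had 4740, 5129, 6006 and 4991 in control and 3063, 2905, 2769 and 2883 in OGTi libraries. The OGTi libraries were close together and all below control (-0.84 ± 0.09, DESeq2 q of 2.30e-21).

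HNRNPA1, a splicing repressor and shuttling protein among the most abundant hnRNPs, had 17560, 19970, 21130 and 20340 normalized counts in control libraries and 10180, 11030, 11580 and 11390 in OGTi libraries. All OGTi libraries were below all control libraries (-0.84 ± 0.06, DESeq2 q of 9.26e-41). Its counts were fractional in 8 of 8 libraries, so part of its reads was divided with other genes, which were not identified. HNRNPA0, a gene of the same subfamily that binds AU-rich elements, had 3834, 3381, 3436 and 3694 in control and 2172, 1710, 2051 and 2141 in OGTi libraries. Again no library of one group entered the range of the other (-0.83 ± 0.08, DESeq2 q of 6.30e-26).

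The 10 other hnRNPs called lower had log2 fold changes from -0.63 to -0.21 and were HNRNPA2B1, HNRNPL, HNRNPC, HNRNPUL1, HNRNPK, HNRNPH1, HNRNPU, HNRNPA3, HNRNPH3 and HNRNPAB. They include the core particle proteins HNRNPA2B1 and HNRNPC, with 64.5% and 66.0% of control, and HNRNPK, a poly(C)-binding protein, with 69.7%. The weakest was HNRNPAB (86.5% of control, DESeq2 q of 0.00886), which missed the threshold with library totals as size factors and without replicate 2, 3 or 4. HNRNPUL1 had fractional counts in 8 of 8 libraries.

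The 5 hnRNPs that were not called are named after their values were seen. HNRNPF, a relative of HNRNPH1 that binds G-rich sequence, had 6594 ± 400 normalized counts in control libraries and 6276 ± 444 in OGTi libraries, with a 95% interval of the log2 fold change from -0.20 to 0.06. HNRNPUL2 had 9073 ± 552 and 8960 ± 356 (interval from -0.15 to 0.12). These 2 intervals overlap that of HNRNPAB, the weakest called hnRNP (from -0.35 to -0.07). The difference between these genes was not tested. HNRNPH2 was less certain, with an interval from -0.61 to -0.01 and a DESeq2 q of 0.0824, and HNRNPA1L2 had one from -0.33 to 0.20. Both had fractional counts in 8 of 8 libraries. HNRNPLL, a relative of HNRNPL, had higher counts in all 4 OGTi libraries than in any control library, with a log2 fold change of 0.19 ± 0.09 and a DESeq2 q of 0.0796.

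**Figure D3:**
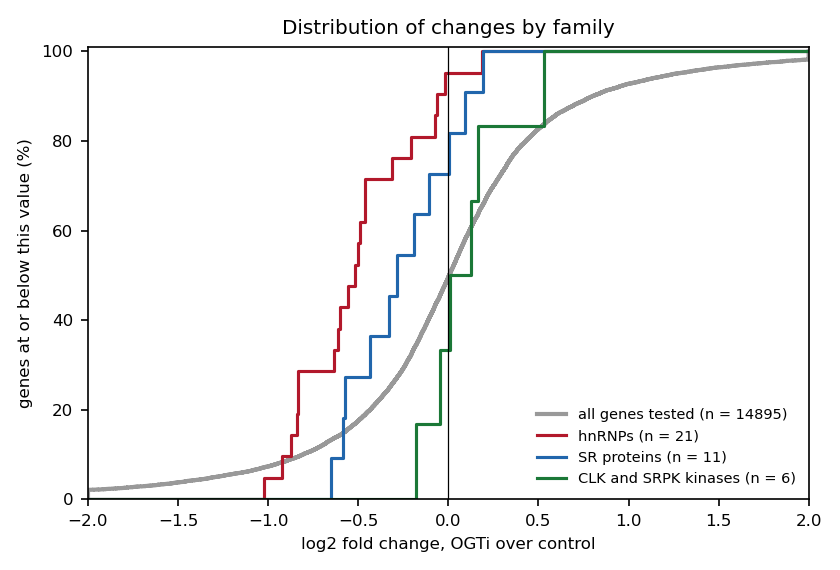
Cumulative share of genes (y axis, %) at or below each log2 fold change of OGTi over control (x axis) for the 21 hnRNPs, the 11 SR proteins, the 6 CLK and SRPK kinases and all 14895 genes tested, with values beyond the axis gathered at its ends. The hnRNP and SR curves lie to the left of the grey curve of all genes over most of the range, with medians of -0.52 and -0.28 against 0.00.

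Of the CLK and SRPK kinases, 0 of 6 were lower and 1 was higher, where 24.0% of all genes were lower and 22.7% higher. Some other kinases that act on SR proteins were called lower, as described below. With 6 genes these counts do not set the kinases apart from other genes. CLK4 had 112, 130, 129 and 118 normalized counts in control libraries and 187, 178, 142 and 200.3 in OGTi libraries. All OGTi libraries were above all control libraries, and the log2 fold change was 0.53 ± 0.20 (95% interval from 0.13 to 0.93, DESeq2 q of 0.0214). CLK4 was the least abundant member per length, with 48.7 ± 3.44 normalized counts per kb of transcript in control, and its call was lost without replicate 1 (0.46, DESeq2 q of 0.134). It was also lost without replicate 2, at 0.56 with a DESeq2 q of 0.0776, and without replicate 4, at 0.45 with a DESeq2 q of 0.173.

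The other CLK and SRPK kinases were not called. CLK1 had 604, 672, 637 and 616 normalized counts in control libraries and 643, 679, 726 and 712 in OGTi libraries, higher in all 4 pairs but with overlapping groups (interval from -0.08 to 0.33). CLK2 had 737 ± 42.8 and 714 ± 45.1 (interval from -0.26 to 0.17). CLK3 had 1400 ± 54.2 and 1247 ± 193 (interval from -0.38 to 0.03), with fractional counts in 8 of 8 libraries.

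SRPK1, the main cytoplasmic SR kinase, had 2170, 2240, 2389 and 2374 normalized counts in control libraries and 2470, 2564, 2558 and 2689 in OGTi libraries. All OGTi libraries were above control, but the difference of 0.17 ± 0.07 on the log2 scale missed the threshold (DESeq2 q of 0.0542). SRPK2 had 1777 ± 71.1 and 1791 ± 103 (interval from -0.15 to 0.18).

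The SRRM proteins are large arginine-serine-rich coactivators of the spliceosome, and neither was called. SRRM1 had 6615 ± 601 normalized counts in control libraries and 6924 ± 432 in OGTi libraries (interval from -0.08 to 0.22). SRRM2, a scaffold of nuclear speckles, had 29250 ± 2215 and 28370 ± 1393 (interval from -0.18 to 0.10).

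Levels between genes were compared per kb of the canonical transcript, which need not be the form expressed. The counts of HNRNPUL1 and HNRNPA1 were fractional in 8 of 8 libraries, so their places in this order are uncertain. HNRNPUL1 had the highest control level, with 6890 ± 668 normalized counts per kb, above HNRNPK (5402 ± 338), HNRNPA1 (5275 ± 410) and SRSF2 (5194 ± 345), and these last 3 differed by less than their spread. Among SR proteins SRSF2 was followed by SRSF9 (2874 ± 102) and SRSF5 (1685 ± 49.2), and SRSF8 was the lowest (103 ± 5.88). Under OGTi, HNRNPA1 was at 2951 ± 166 per kb and SRSF2 at 4144 ± 337, so SRSF2 stood above HNRNPA1 there.

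The choice by symbol did not use the annotated transcript forms of the members. In GENCODE, 22 of the 25 members called lower (88.0%) and 11 of the 16 not called (68.8%) have at least 1 transcript classed as a target of nonsense-mediated decay, against 45.0% of protein-coding genes tested and 52.3% of those whose mean reached 1000 normalized counts. A transcript with a retained intron is annotated for 21 of 25 (84.0%) and 11 of 16 (68.8%), against 57.8% and 69.0%, so the share of the members not called was close to that of abundant genes. The sets were not matched for the number of annotated transcripts, which reached 84 for HNRNPA1. Nor were they matched for level: the abundant genes had a median mean count of 2315, against 5261 for members called lower. The gene counts sum productive and unproductive forms, so they do not show which form changed.

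Other splicing genes were counted in lists of the pathway, where 24.0% of all genes with a q were lower and 22.7% higher. All 7 hnRNPs that carry other symbols were lower. RBMX (hnRNP G) had a log2 fold change of -0.98 ± 0.07, with fractional counts in 8 of 8 libraries (DESeq2 q of 4.07e-40). Among 32 other splicing regulators, 22 were lower and 3 higher (median -0.38). By Wald statistic the strongest were FUBP1 (-1.06 ± 0.08) and EWSR1 (-0.75 ± 0.07), while PCBP3, named after its values were seen, rose by 1.20 ± 0.14 on the log2 scale (DESeq2 q of 3.74e-17). Of 26 SR-related proteins 12 were lower and 5 higher (median -0.15), with the strongest Wald statistics for RBM23 (-0.80 ± 0.08) and RBM25 (-0.54 ± 0.08).

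Of 13 other kinases and phosphatases that act on SR proteins, 7 were lower (53.85%) and 3 higher (23.08%), against 24.0% and 22.7% of all genes. The lower genes were the phosphatases PPP1CA, PPP1CB, PPP1CC and PPP2CA and the kinases DYRK2, PRPF4B and CDK12. The higher genes were the kinases DYRK3, CDK11A and DYRK1B. Except for DYRK2 and DYRK3, these are named after their values were seen. DYRK3, a kinase that dissolves nuclear speckles, had 398, 509, 514 and 443 normalized counts in control libraries and 765, 987, 846 and 925 in OGTi libraries. It was higher in every OGTi library (0.92 ± 0.11, DESeq2 q of 8.58e-16), whereas its relative DYRK2 was lower with overlapping groups (-0.56 ± 0.11, q of 6.55e-07).

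The core spliceosome was mixed. Of 26 U1, U2 and Sm proteins, 13 were lower and 1 was higher (median -0.26), with SNRPG at -0.75 ± 0.11 and SNRPA at -0.48 ± 0.07. Of 28 tri-snRNP and activation proteins, 7 were lower and 4 higher (median -0.04). PLRG1 rose by 0.34 ± 0.08 on the log2 scale and SART1 had a change of -0.34 ± 0.08. Of 15 nonsense-mediated decay factors, 4 were lower and 3 higher (median -0.01), with the strongest Wald statistics for CASC3 (-0.59 ± 0.06) and SMG9 (-0.57 ± 0.08). The shares called lower in these last 2 lists were close to the 24.0% of all genes.

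**Figure D4:**
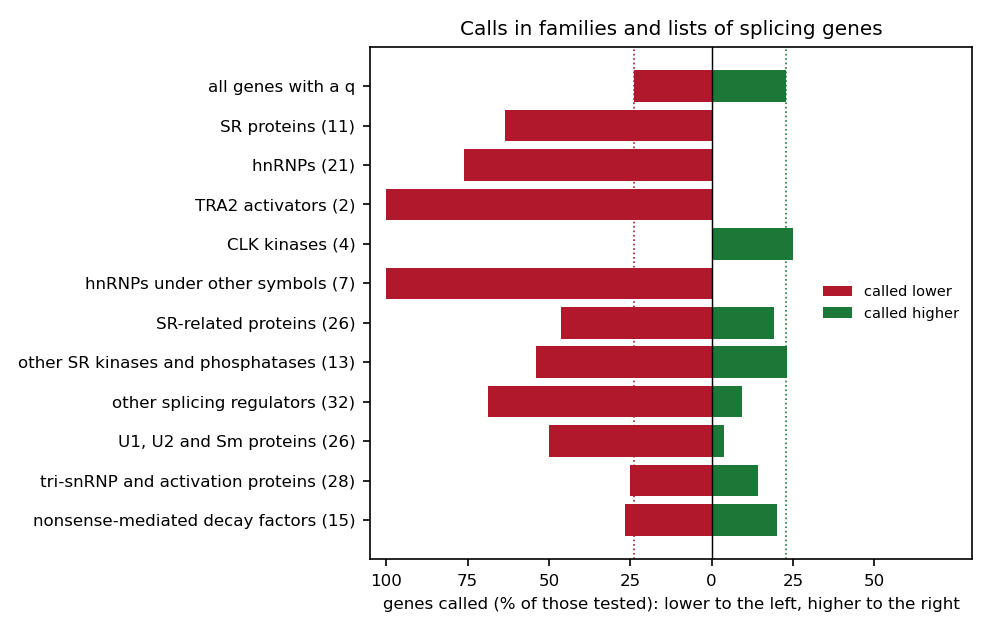
Share of genes called lower (bars to the left) and higher (bars to the right) by DESeq2 in 4 member families and 7 lists of splicing genes, in % of the genes tested (number in brackets), with dotted lines at the 24.0% and 22.7% of all genes with a q. The hnRNPs, with 76.2% lower, and the SR proteins, with 63.6%, extend well past the dotted line, while the tri-snRNP proteins and decay factors end near it.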

How the data were processed

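RNA was enriched with oligo-dT and sequenced from both ends of stranded libraries of 4 control and 4 OGTi cultures. The authors aligned reads to hg38 with Bowtie2 2.3.5.1 and estimated expression with RSEM 1.3.1; the deposited expected counts are not scaled for depth and divide reads between genes where they match several. The authors' comparison table (fold changes and p-values) was not used.

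Expected counts were rounded, genes under 10 counts in total were left out, and DESeq2 1.42.0 (R 4.3.3) was fitted to all genes with replicate number as a block, as in the study's methods, using median-of-ratios size factors and a q of 0.05. Deviations from the group mean correlated between libraries of the same number (0.378, 0.303, 0.138 and 0.269 for replicates 1 to 4, over 11702 genes). Control replicate 3 was closer to OGTi replicate 4 (0.272), and OGTi replicate 3 was closer to control replicate 4 (0.2015). The correlations therefore do not settle the pairing of replicates 3 and 4, which rests on the numbers in the sample titles. Intervals are 95% intervals of the model. Counts were divided by the size factor (normalized counts, to 4 digits), with SD over 4 libraries; fold changes carry their SE. Alternatives included edgeR 4.0.16.

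All SRSF, TRA2, CLK, SRPK and SRRM genes were named, as were the 6 largest called falls (and rises, of which there were 0) among hnRNPs averaging 100 or more normalized counts with 1 direction in 4 pairs, and the 2 strongest Wald statistics per list. For 1 list, 1 gene of this rule is not reported here. Members and lists were chosen with earlier results of these data known. Positions, lengths and transcript classes came from GENCODE 44 on GRCh38, promoters from RefSeq.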

Additional observations from a re-analysis of the deposited data

Results flagged for a closer look

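In 2 of the 84 groups of 4 libraries, 1 library lay far from the other 3, where chance alone gives about 4.2 such groups. SRRM2 had 25950 normalized counts in control replicate 1 and 29980 to 30630 in the other control libraries, and its log2 fold change was -0.04 with and -0.10 without replicate 1 (DESeq2 q of 0.268 without it). SRSF2 had 8831 in control replicate 1 and 10070 to 10170 in the others, and its log2 fold change was -0.33 with and without replicate 1 (DESeq2 q of 4.21e-05 without it).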

How the results depend on the processing

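Of the 42 members, 29 kept their direction and their side of the threshold under all 10 alternatives, as did 23 of the 25 called lower (the exceptions were SRSF4 and HNRNPAB). The number called lower was 23 to 26. The number called higher was 1 as reported, 3 with no replicate block and 3 with library totals (CLK4, HNRNPLL and SRPK1), and 0 to 1 when a replicate was left out. The fit without the replicate block called 28 members in place of 26, and each of the paired and unpaired fits called 25 lower. HNRNPH2 passed with edgeR (q of 0.0493) and without replicate 4 (-0.50, q of 0.00951). Library totals moved the median of all genes by 0.09 and reversed the sign of uncalled members: CLK2 (0.044), HNRNPA1L2 (0.027), HNRNPF (0.019), HNRNPUL2 (0.073) and SRRM2 (0.048). Leaving out 1 replicate at a time also turned signs of uncalled members, with ranges of -0.106 to 0.036 for CLK2, -0.100 to 0.006 for SRRM2, -0.039 to 0.033 for HNRNPUL2, -0.052 to 0.036 for SRSF11 and -0.034 to 0.055 for SRPK2. The cause was not tested. Calls in the 7 other splicing lists together with OGT and OGA numbered 93 in the fit reported and 75 to 94 otherwise. CLK4, the called member with the fewest counts (112 to 200.3 per library), lost its call without replicate 1, 2 or 4.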
